A study of Homo sapiens with 10 samples.

Results

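Keratins are the intermediate filament proteins of epithelial cells. The genes described here are KRT8, KRT18, KRT19, KRT20, KRT23 and KRT80, chosen by name as epithelial keratins, 6 of the 18034 gene IDs in the tables. They were followed in HCT116, a human cell line established from a colorectal carcinoma, by mRNA sequencing of 10 libraries in 5 groups of 2. The inhibitor experiment set EPZ cells, given 10 µM EPZ-5676 for 72 h, against DMSO cells, both with the genotype labelled Control. EPZ-5676 inhibits DOT1L, the methyltransferase that modifies the core of histone H3 along transcribed genes. In the knockdown experiment all 3 lines carry shCDK9, a knockdown of CDK9, the kinase subunit of P-TEFb that releases paused RNA polymerase II, and have no drug treatment. WT cells were reconstituted with wild-type CDK9, K56A cells with a CDK9 mutant named K56A, and EV, a name the labels do not spell out, is the line both are set against. The labels do not say whether a line is a clone or a pool, or whether the 2 libraries of a group come from independent cultures. The p-values therefore refer to the spread of these libraries alone, and that spread may be technical.

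Keratin filaments are built from obligate pairs of a type I (acidic) and a type II (basic to neutral) chain. KRT8 (type II) and KRT18 (type I) form the primary pair of simple epithelia such as the lining of the colon, and KRT19 is a further type I partner of KRT8. KRT20 is a type I keratin of differentiated intestinal epithelium, KRT23 a type I keratin first described as induced by histone deacetylase inhibitors in pancreatic cancer cells, and KRT80 a type II keratin related to the hair keratins. An unpaired keratin chain is unstable, so the balance of the 2 types is part of how these proteins are controlled.

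The type II genes lie on chromosome 12 (GRCh38): KRT8 (ENSG00000170421) spans 52897187 to 52949954 on the minus strand and KRT80 (ENSG00000167767) spans 52168996 to 52192014 on the minus strand. KRT18 (ENSG00000111057) is the type I gene that lies among them, at 52948871 to 52952906 on the plus strand. The other type I genes lie on the minus strand of chromosome 17, with KRT19 (ENSG00000171345) at 41523617 to 41528308, KRT20 (ENSG00000171431) at 40875889 to 40885242 and KRT23 (ENSG00000108244) at 40922700 to 40937646.

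The cells were checked against 8 markers of colon epithelium, of which CDX1, VIL1, LGALS4 and CEACAM5 have no values in the tables. The other 4 (EPCAM, CLDN7, CDH1 and CDX2) were above 0 in every library. Those 4 summed to 282 and 286 FPKM in EPZ, against 265 and 286 in DMSO, and to 494 and 492 in WT and 509 and 512 in K56A, against 571 and 558 in EV. This sum, mostly EPCAM, was lower in both reconstituted lines than in EV, and its part in the keratin values was not tested. EPCAM and CLDN7 averaged lower in both lines, but CDH1 averaged 37.9 FPKM in WT and 38.5 in K56A, against 37.1 in EV. CDX2 averaged 2.45 FPKM in WT and 3.56 in K56A, against 2.47 in EV. FPKM counts fragments per kilobase of transcript after scaling for library size, so levels can be compared between genes, and the values used here are sums over the transcripts of a gene. Of squamous markers 2 of 7 have values and summed to 5.13 to 9.66 FPKM, mostly KRT10, and of fibroblast markers 2 of 6, which summed to 19.4 to 36.3, nearly all of it COL1A1, which stood at 23.1 and 19.8 FPKM in EPZ, against 19.3 and 20.1 in DMSO, and at 34.0 and 33.1 in WT and 36.2 and 34.5 in K56A, against 29.9 and 27.4 in EV. Endothelial markers (3 of 4 with values) and blood markers (1 of 5) summed to at most 0.725 FPKM. CDK9 averaged 3018 FPKM in WT and 2556 in K56A, against 17.9 in EV. DOT1L averaged 573 and 718, against 333, so the lines differ in both genes. In EPZ and DMSO, CDK9 averaged 40.2 and 40.7 FPKM, and DOT1L 10.5 and 12.6. DOT1L was thus listed far higher in every knockdown line, EV included, and its part in the keratin values was not tested. The inhibitor and knockdown tables were normalized separately and are set side by side without a test. The K56A values were put on the scale of the WT table through the EV libraries that both tables hold.

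KRT8 was the most abundant keratin in every library, followed by KRT19 and KRT18, with KRT80, KRT23 and KRT20 far below. KRT8 stood at 1286 and 1160.4 FPKM in EPZ, against 1308 and 1174 in DMSO, and at 556 and 548 in WT and 579 and 579 in K56A, against 583 and 615 in EV. KRT18 stood at 612 and 580.3 FPKM in EPZ, against 597 and 598 in DMSO, and at 320.0 and 329 in WT and 345 and 346 in K56A, against 314 and 331 in EV. KRT19 stood at 657 and 565 FPKM in EPZ, against 624 and 586 in DMSO, and at 354 and 369 in WT and 397 and 384 in K56A, against 364 and 378 in EV. All 3 had overlapping groups in the inhibitor experiment, and in the knockdown experiment KRT18 and KRT19 were highest in both K56A libraries while KRT8 was lowest in both WT libraries. KRT8 ranked between 41st and 45th among all genes in the inhibitor libraries and between 82nd and 103rd in the knockdown libraries. The order of KRT18 and KRT19 was not fixed in the inhibitor libraries, where KRT19 was 0.973 to 1.07 times KRT18, and KRT19 was 1.11 to 1.16 times KRT18 in all 6 knockdown libraries.

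The other 3 genes were far lower, and KRT23 and KRT80 were listed at higher levels in the knockdown than in the inhibitor libraries. KRT23 stood at 0.868 and 0.553 FPKM in EPZ, against 0.124 and 0.429 in DMSO, and at 12.7 and 13.3 in WT and 12.6 and 11.5 in K56A, against 12.2 and 13.4 in EV. KRT80 stood at 3.04 and 2.30 FPKM in EPZ, against 3.53 and 3.02 in DMSO, and at 6.02 and 5.93 in WT and 6.36 and 6.10 in K56A, against 5.06 and 5.92 in EV. KRT20 stood at 0.310 and 0.277 FPKM in EPZ, against 0.0254 and 0.125 in DMSO, and at 0.160 and 0.190 in WT and 0.232 and 0.205 in K56A, against 0.297 and 0.193 in EV. KRT20 and KRT23 did not overlap between EPZ and DMSO, and neither did 37.4% of the 13130 genes tested. The share among lower genes was not counted. All KRT20 and KRT23 values in EPZ and DMSO are below 1 FPKM, the level a gene needed in 2 libraries to be tested. KRT20 was below it in every library. CDX2, an intestinal transcription factor, stood at 2.26 to 8.5 FPKM over the same libraries. In bulk RNA, fewer cells with a transcript and less of it per cell cannot be told apart.

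**Figure D1:**
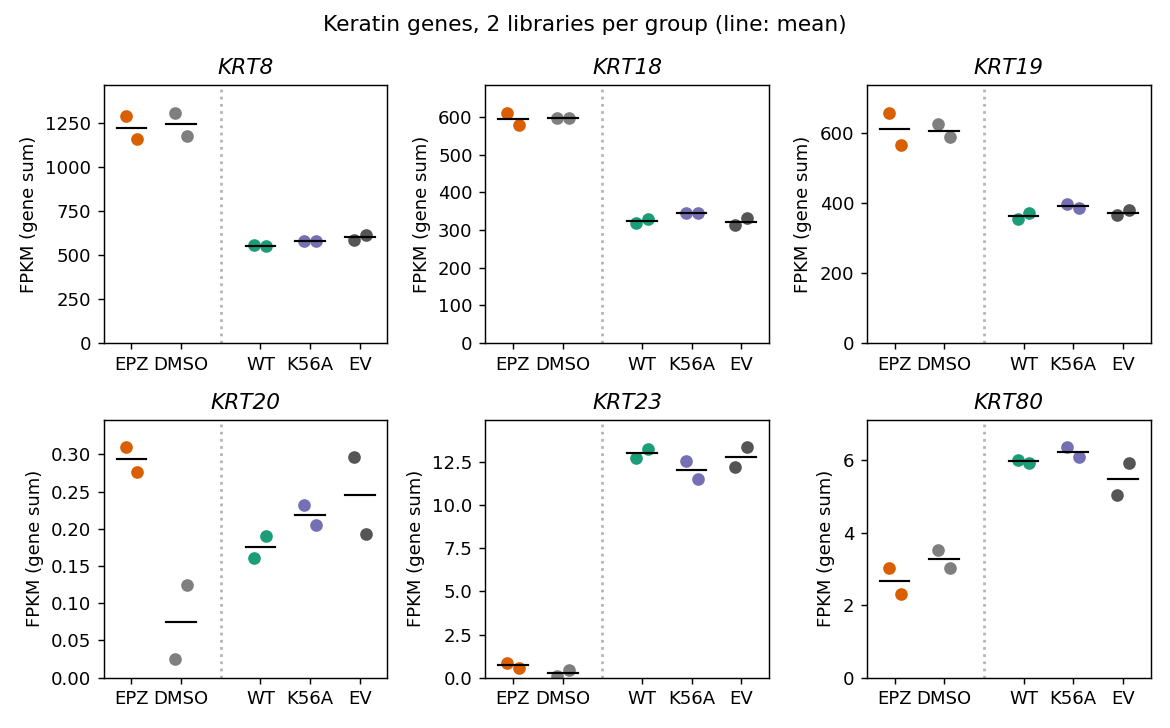
FPKM per gene (vertical axis, starting at 0) in each library of EPZ, DMSO, WT, K56A and EV, with a line at the mean of the 2 libraries and a dotted line between the separately normalized experiments. KRT8, KRT18 and KRT19 stay above 314 FPKM in every library, KRT23 is above 11 FPKM only in the knockdown libraries, and KRT20 stays under 0.32 FPKM throughout.

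Together the 6 genes made up 99.1% to 99.3% of all keratin FPKM in the inhibitor libraries and 96.8% to 97.2% in the knockdown libraries. KRT8, KRT18 and KRT19 alone held 98.5% to 99.9% of the FPKM of the 6. The summed FPKM of type II genes (KRT8 and KRT80) and type I genes (KRT18, KRT19, KRT20 and KRT23) were close to balance in the inhibitor libraries. The type II to type I ratio, of RNA and not of protein, was 1.01 and 1.01 in EPZ, against 1.07 and 0.993 in DMSO. The ratio was lower in the knockdown libraries, at 0.819 and 0.778 in WT and 0.776 and 0.789 in K56A, against 0.851 and 0.860 in EV. The ratio of KRT8 to KRT18 was 1.74 and 1.67 in WT and 1.68 and 1.67 in K56A, against 1.85 and 1.86 in EV. Neither reconstituted line overlapped EV in this ratio, and both were set against the same EV libraries. A two-sided exact permutation test gave p = 0.333 for each, the smallest that 2 against 2 libraries allow. Any ratio without overlap gives that p here, so the test cannot decide whether the ratio differs. In the inhibitor experiment the KRT8 to KRT18 ratio was 2.1 and 2.0 in EPZ, against 2.19 and 1.96 in DMSO, and the groups overlapped.

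DOT1L inhibition left no keratin past the test. Of the 4 genes that could be tested, 0 passed at an adjusted p of 0.05 with limma, against 0.00762% of all 13130 genes (1 gene), and 0 of the 4 had an unadjusted p under 0.05, against 765 of all genes. KRT8 had a log2 fold change of -0.02 ± 0.10 (SE), with a 95% interval of -0.25 to 0.21, and an adjusted p of 0.959. KRT18 had -0.0042 ± 0.09 with an interval of -0.21 to 0.20, and KRT19 had 0.01 ± 0.10 with an interval of -0.23 to 0.25 (limma adjusted p = 0.993 and 0.985). For these 3 genes the intervals cover fold changes from 0.843 to 1.19 at the outside. KRT80 had -0.26 ± 0.21 with a wider interval of -0.74 to 0.22 (limma adjusted p = 0.768). The KRT80 value was -1.07 ± 0.37 when only transcripts above 0 in every library were summed, which leaves out KRT80-201, and -0.09 without EPZ replicate 2, and it passed in neither. Groups overlapped for all 4, against 37.4% of all genes whose groups did not. The median log2 fold change of the 4 was -0.012, against 0.002 over all genes. Tested without a filter on low values, KRT20 had a log2 fold change of 0.47 ± 0.20 and KRT23 of 0.66 ± 0.27 on the log2(FPKM + 0.5) scale (limma adjusted p = 0.768 for both), a scale that understates changes at such levels.

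**Figure D2:**
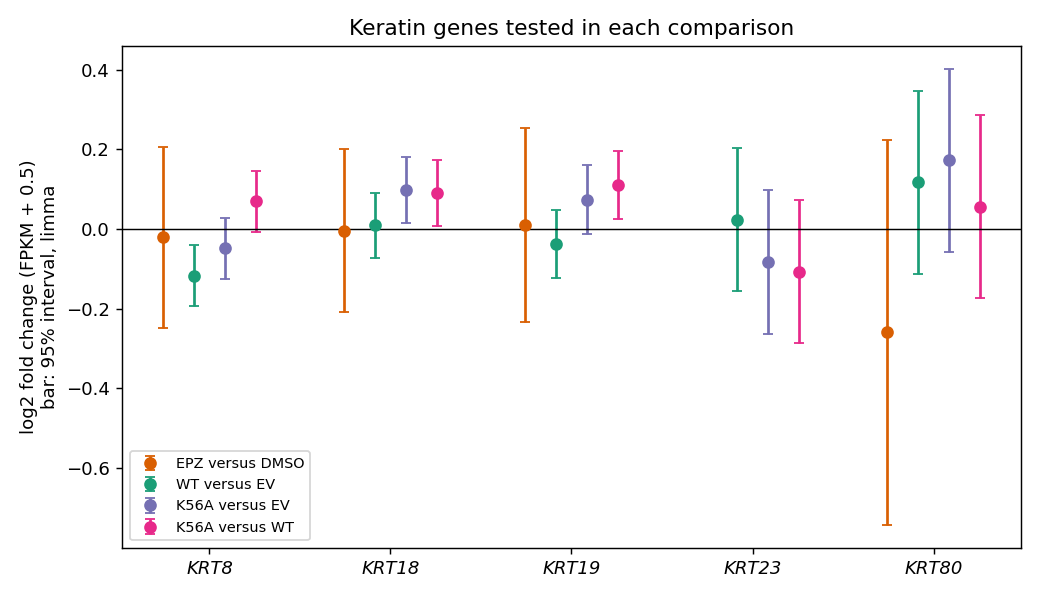
Log2 fold change of FPKM + 0.5 with its 95% interval (vertical axis) for each keratin tested for EPZ versus DMSO, for each reconstituted line versus EV, and for K56A versus WT. Points sit between -0.26 and 0.17, and no gene passed the test at an adjusted p of 0.05.

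Putting wild-type CDK9 back also moved no keratin past the test: 0 of 5 genes passed, against 0.513% of all 12077 genes, and 1 of 5 had an unadjusted p under 0.05, against 1622 of all genes. That gene was KRT8, which averaged 552 ± 5.72 FPKM in WT and 599 ± 22.9 in EV (SD, n = 2 each). Its log2 fold change was -0.12 ± 0.03 (SE), with a 95% interval of -0.19 to -0.04, an unadjusted p of 0.0078 and an adjusted p of 0.189 in the limma fit. Its partner KRT18 averaged 325 ± 6.34 FPKM in WT and 323 ± 11.8 in EV, a log2 fold change of 0.01 ± 0.04 with an interval of -0.07 to 0.09. KRT19 had -0.04 ± 0.04, KRT23 0.02 ± 0.08 and KRT80 0.12 ± 0.10 (limma adjusted p = 0.732, 0.926 and 0.675). KRT8 lay below EV in both WT libraries and KRT80 above EV in both, so 2 of 5 did not overlap, against 43.4% of all genes.

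K56A cells likewise had 0 of 5 keratins past the test against EV, beside 0.729% of all 12077 genes. An unadjusted p under 0.05 was found for 1 of 5, against 1817 of the 12077. KRT18 averaged 345 ± 0.563 FPKM in K56A and 323 ± 11.8 in EV (SD, n = 2 each). Its log2 fold change was 0.10 ± 0.04, with an interval of 0.02 to 0.18 (unadjusted p = 0.0245 and adjusted p = 0.266, limma). KRT19 averaged 390.4 ± 9.38 FPKM in K56A and 371 ± 9.97 in EV, a log2 fold change of 0.07 ± 0.04 (limma adjusted p = 0.399). KRT8 had -0.05 ± 0.03, KRT23 -0.08 ± 0.08 and KRT80 0.17 ± 0.10 (limma adjusted p = 0.551, 0.682 and 0.461). KRT18, KRT19 and KRT80 lay above EV without overlap and KRT8 below it, 4 of 5, against 45.4% of all genes, and the median of the 5 was 0.07, against 0.03 over all genes.

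K56A was set directly against WT to compare the line with mutant CDK9 and the line with wild-type CDK9. In this comparison DOT1L had a log2 fold change of 0.32 ± 0.04 and CDK9 of -0.24 ± 0.07 (limma adjusted p = 0.0397 and 0.224). The part of either in the keratin values was not tested. Of the keratins 0 of 5 passed, against 0.058% of all 12077 genes. An unadjusted p under 0.05 was found for 2 of 5, against 1549 of the 12077. KRT19 had a log2 fold change of 0.11 ± 0.04 with an interval of 0.03 to 0.20, and KRT18 of 0.09 ± 0.04 with an interval of 0.01 to 0.17 (limma adjusted p = 0.286 and 0.351). KRT8 had 0.07 ± 0.03, KRT80 0.06 ± 0.10 and KRT23 -0.11 ± 0.08 (limma adjusted p = 0.437, 0.872 and 0.636). KRT8, KRT18, KRT19 and KRT80 were above WT in both K56A libraries and KRT23 was below it in both, so none of the 5 overlapped, against 45.4% of all genes. Mitochondrial genes took 25.4% and 25.6% of all FPKM in K56A, against 27.7% and 27.2% in WT and 27.9% and 27.6% in EV, and their part in the higher keratin values of K56A was not tested. The K56A and WT comparisons with EV share the EV libraries.

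Most keratin FPKM lay in a single coding transcript per gene. KRT18-201 held 87.1% to 94.2% of KRT18, KRT19-201 held 89.4% to 96.9% of KRT19, and KRT8-201 held 77.4% to 93.9% of KRT8. The next KRT8 transcript, KRT8-215, starts at 52926469, far upstream of KRT8-201. It stood at 127 and 149 FPKM in EPZ, against 47.5 and 105 in DMSO, and at 80.8 and 31.3 in WT and 63.8 and 92.1 in K56A, against 61.2 and 88.8 in EV. Its EPZ values lay above both DMSO values, and the share of all transcripts without overlap was not counted. The authors' deposited table gave it an unadjusted p of 0.00555 and an adjusted p of 0.258, while WT and K56A overlapped EV. That start is the annotated one, and whether it is used in these cells was not tested. The bases just before it are shown (RefSeq, GRCh38.p14, chr12:52926470-52926589, minus strand, 5′ to 3′).
KRT8 upstream start: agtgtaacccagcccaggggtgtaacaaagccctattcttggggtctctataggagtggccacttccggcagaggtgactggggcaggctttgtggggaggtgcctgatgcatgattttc

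The transcripts annotated as keeping an intron were summed apart from the coding ones for each gene, a split chosen after the transcript values were seen. KRT8, KRT18 and KRT19 have the retained-intron sums with the highest FPKM. The exon-intron borders of 5 introns kept in these transcripts are shown so that the reads concerned can be pictured (GENCODE 29 transcripts, GRCh38, 5′ to 3′). Each line gives the last 20 bases of the exon and the first 60 of the intron, and the capitals mark the GT at the start of the intron. The windows are chr12:52901804-52901883 and chr12:52901099-52901178 (minus strand) for KRT8 introns 3 and 4, chr12:52950391-52950470 (plus strand) for KRT18 intron 2, and chr17:41525131-41525210 and chr17:41524083-41524162 (minus strand) for KRT19 introns 2 and 5. Intron 3 and intron 4 are kept in KRT8-203 and intron 4 in KRT8-213, KRT18 intron 2 in KRT18-206, KRT19 intron 2 in KRT19-206, and KRT19 intron 5 in KRT19-204 and KRT19-205.
KRT8 intron 3: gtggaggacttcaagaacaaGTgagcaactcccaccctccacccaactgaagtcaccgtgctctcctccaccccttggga
KRT8 intron 4: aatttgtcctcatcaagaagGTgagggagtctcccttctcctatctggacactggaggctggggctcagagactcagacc
KRT18 intron 2: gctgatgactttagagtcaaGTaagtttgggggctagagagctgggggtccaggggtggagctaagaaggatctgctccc
KRT19 intron 2: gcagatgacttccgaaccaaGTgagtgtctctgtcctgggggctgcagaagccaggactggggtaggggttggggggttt
KRT19 intron 5: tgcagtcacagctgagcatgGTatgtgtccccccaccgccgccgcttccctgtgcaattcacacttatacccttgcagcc

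In both reconstituted lines the retained-intron sums of KRT8, KRT18 and KRT19 were higher than in EV in every library, although none passed the test. KRT19 stood at 34.2 and 37.4 FPKM in WT and 37.5 and 40.5 in K56A, against 26.7 and 23.8 in EV. KRT8 stood at 27.3 and 32.6 FPKM in WT and 30.0 and 26.4 in K56A, against 22.0 and 19.9 in EV. KRT18 stood at 38.2 and 40.7 FPKM in WT and 35.4 and 38.6 in K56A, against 29.8 and 33.1 in EV. The log2 fold changes of WT over EV were 0.50 ± 0.08 for KRT19, 0.50 ± 0.11 for KRT8 and 0.33 ± 0.08 for KRT18 (limma adjusted p = 0.202, 0.259 and 0.265). Those of K56A over EV were 0.62 ± 0.08 for KRT19, 0.42 ± 0.11 for KRT8 and 0.23 ± 0.08 for KRT18 (limma adjusted p = 0.144, 0.313 and 0.371). Of the 5 keratin retained-intron sums tested, 3 lay above EV without overlap in WT and 4 in K56A, against 19.6% and 26% of all 4403 such sums. In WT, KRT80 lay below EV without overlap, against 16.6%, and 0 passed in either direction in either line. KRT23 overlapped EV in both lines, with log2 fold changes of -0.41 ± 0.49 in WT and -0.03 ± 0.49 in K56A (limma adjusted p = 0.843 and 0.992). Among all retained-intron sums 0 passed in WT against EV (457 had an unadjusted p under 0.05), and in K56A against EV 0 passed as higher and 1 as lower, 0.0227%. The median log2 fold change of the 5 was 0.33 in WT and 0.37 in K56A, against 0.01 and 0.06 over all retained-intron sums.

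The coding sums of the same genes lay closer to 0, below it for all 3 in WT and for KRT8 in K56A, and above it for KRT18 and KRT19 in K56A. In WT against EV the coding sum of KRT8 had a log2 fold change of -0.15 ± 0.04, KRT19 of -0.09 ± 0.04 and KRT18 of -0.03 ± 0.03 (limma adjusted p = 0.287, 0.557 and 0.828). In K56A against EV the values were -0.07 ± 0.04 for KRT8, 0.02 ± 0.04 for KRT19 and 0.08 ± 0.03 for KRT18 (limma adjusted p = 0.544, 0.888 and 0.443). As a share of the gene's FPKM, the retained-intron transcripts of KRT19 made up 9.68% and 10.1% in WT and 9.45% and 10.6% in K56A, against 7.35% and 6.29% in EV. Those of KRT18 made up 11.9% to 12.4% in WT and 10.3% to 11.2% in K56A, against 9.47% to 10.0% in EV, and those of KRT8 4.90% to 5.95% and 4.56% to 5.18%, against 3.24% to 3.77%. Neither line overlapped EV for any of these 3 genes. After the values were seen, this share was also counted over the 5 keratins with a tested retained-intron sum. It was higher than EV without overlap for 3 in WT and 4 in K56A, against 19.8% and 20.5% of all such genes. It was lower for 1 in WT (KRT80) and 0 in K56A, against 15.9% for each line. Between K56A and WT, it was higher in K56A for 1 (KRT80) and lower for 1 (KRT18), against 18.4% and 16.4%. In K56A against WT, the retained-intron sums had log2 fold changes of -0.08 ± 0.11 for KRT8, -0.09 ± 0.08 for KRT18 and 0.12 ± 0.08 for KRT19 (limma adjusted p = 0.882, 0.781 and 0.727). The retained-intron sum of KRT80, the low KRT80-203, stood at 1.33 and 1.17 FPKM in K56A, against 0.546 and 0.445 in WT, and at 0.782 and 0.925 in EV. Its log2 fold change of 0.81 ± 0.24 in K56A against WT was the highest of the 5 keratin retained-intron sums and did not pass (unadjusted p = 0.0158 and adjusted p = 0.451, limma).

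**Figure D3:**
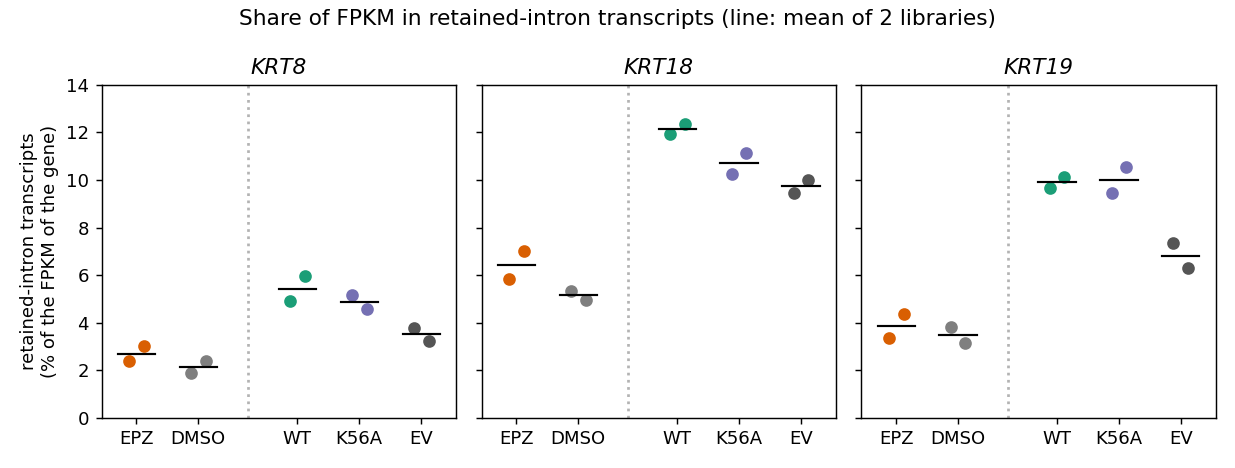
Share of the gene's FPKM in retained-intron transcripts (vertical axis, percent) for KRT8, KRT18 and KRT19 in each library, with a line at the mean of 2. The WT and K56A libraries of each gene sit above both EV libraries, and the knockdown libraries above the inhibitor libraries, which were normalized separately.

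In EPZ against DMSO no retained-intron sum of a keratin passed either. KRT18 stood at 35.8 and 40.7 FPKM in EPZ, against 31.8 and 29.7 in DMSO, a log2 fold change of 0.31 ± 0.12. KRT8 stood at 30.5 and 35.1 FPKM in EPZ, against 24.7 and 28.1 in DMSO, a log2 fold change of 0.31 ± 0.14. KRT19 stood at 21.9 and 24.7 FPKM in EPZ, against 23.7 and 18.4 in DMSO, a log2 fold change of 0.15 ± 0.17. The 3 tests did not pass (limma adjusted p = 0.827, 0.827 and 0.863), and 2 of 3 lay above DMSO without overlap, against 21.5% of 4037 retained-intron sums. All 3 coding sums lay between -0.03 and 0.01. In share of the gene, KRT8 overlapped between EPZ (2.37% and 3.03%) and DMSO (1.89% and 2.39%), while KRT18 did not (5.85% and 7.01% in EPZ, 5.32% and 4.97% in DMSO). That makes 1 of 3 higher without overlap, against 24% of all genes with a retained-intron sum.

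**Figure D4:**
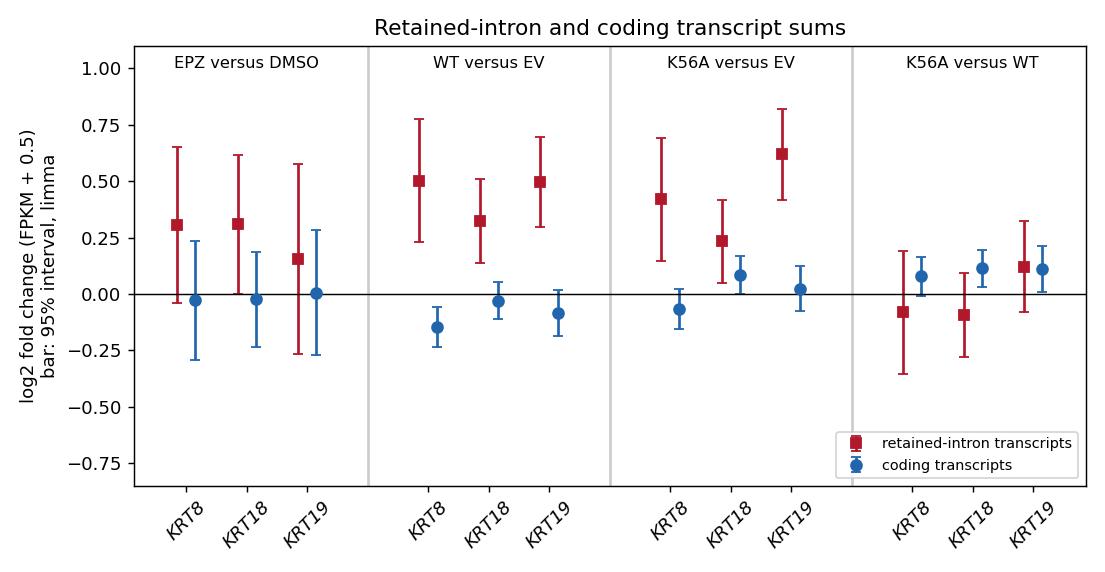
Log2 fold change of FPKM + 0.5 with its 95% interval (vertical axis) for the retained-intron sum (squares) and the coding sum (circles) of KRT8, KRT18 and KRT19 in the 4 comparisons. Against EV the squares lie at 0.23 to 0.62 and the circles at -0.15 to 0.08, and none passed at an adjusted p of 0.05.

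At the level of single transcripts, the authors' deposited table for K56A against EV holds calls for 4 of 37 keratin transcripts at an adjusted p under 0.05, against 3.8% of all 74761 transcripts there, and 3 of the 4 keep an intron. KRT19-204 had a log2 fold change of 1.28 (adjusted p = 2.051e-09) in the authors' deposited table, with 12.5 and 13.1 FPKM in K56A, against 5.15 and 5.13 in EV. In WT, KRT19-204 stood at 7.0 and 8.77 FPKM, with 0.60 and an adjusted p of 0.329 in the authors' deposited table. KRT8-203 and KRT8-213 had 0.44 and 0.61 in the authors' deposited table for K56A (adjusted p = 0.00746 and 0.0213). The coding transcript KRT8-201 had -0.13 in the authors' deposited table for K56A (adjusted p = 0.015). It stood at 473 and 448 FPKM in K56A, against 487 and 494 in EV. KRT18-201 and KRT19-201 had 0.04 and -0.01 in the authors' deposited table for K56A (unadjusted p = 0.291 and 0.758) and were not called. The authors' deposited tables hold 0 calls among 35 keratin transcripts for WT against EV and 0 among 27 for EPZ against DMSO, against 3.33% and 1.19% of all transcripts.

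Several features of these genes bear on how reads are assigned. KRT8 and KRT18 lie on opposite strands, and 7 of the 14 KRT8 transcripts reach into KRT18. They held 0.581% to 2.84% of KRT8 FPKM, and whether the reads were counted by strand is not given in the sources used here. GENCODE 29 lists 50 pseudogenes of KRT8, 67 of KRT18 and 5 of KRT19. Of all 75-base windows, 17.8% in KRT8-201 and 5.85% in KRT18-201 occur unchanged in a keratin pseudogene, against none in the main transcripts of KRT19, KRT20, KRT23 and KRT80. Pseudogenes of KRT8 summed to 12.2 to 18.2 FPKM, 1.39% to 2.51% of KRT8, so KRT8 carries more of this uncertainty than KRT19. Of the genes with lower levels, KRT20 had 1 listed transcript, while KRT80, and KRT23 in the knockdown libraries, divided their FPKM among several. KRT23-202 held all KRT23 FPKM in the inhibitor libraries and 25.7% to 42.6% in the knockdown libraries. There KRT23-201 and the retained-intron transcript KRT23-207 held much of the rest. KRT80-202 held 16.4% to 83.5% of KRT80, and KRT80-201 was listed at 0 in a DMSO library.

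Genes that accompany these keratins were examined as lists, and no list member passed in any of the 4 comparisons. Of the other keratins, 3 of 11 listed could be tested in the knockdown experiment and 4 in the inhibitor experiment, and 0 passed in any comparison. KRT7, a simple-epithelium type II keratin, stood at 0.843 and 1.25 FPKM in EPZ, against 2.42 and 1.01 in DMSO, and at 18.6 and 18.7 in WT and 23.7 and 19.7 in K56A, against 20.6 and 18 in EV. KRT15, a type I keratin of basal cells, stood at 6.97 and 7.28 FPKM in EPZ, against 6.09 and 5.99 in DMSO, and at 13.8 and 13.2 in WT and 13.2 and 15.4 in K56A, against 12.3 and 13.9 in EV. Of 13 keratin pseudogenes, 4 or 5 could be tested, and 0 passed. The largest of them by level was KRT8P3, with means of 8.78 FPKM in EPZ and 9.94 in DMSO.

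Of 22 genes that anchor keratin filaments at desmosomes and hemidesmosomes or regulate them, 20 were tested in the inhibitor experiment and 19 in the knockdown experiment. In EPZ against DMSO 0 passed, 14 lay above 0 and 6 below, and the median log2 fold change was 0.08. In WT against EV 0 passed and the median was -0.03, in K56A against EV 0 passed and the median was 0.04, and in K56A against WT 0 passed and the median was 0.08. ITGB4, the hemidesmosomal integrin chain, averaged 172 FPKM in EPZ and 202 in DMSO, and 156 in WT and 167 in K56A, against 168 in EV. PLEC, which links keratin filaments to integrins, averaged 120 FPKM in WT and 144 in K56A, against 128 in EV, and had a log2 fold change of 0.27 ± 0.04 in K56A against WT (limma adjusted p = 0.118). PERP, a desmosomal membrane protein chosen after its values were seen, averaged 51.7 FPKM in WT and 49.7 in K56A, against 59.7 in EV, with a log2 fold change of -0.26 ± 0.05 in K56A against EV (limma adjusted p = 0.0867).

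Among other intermediate filament genes, 11 of 16 were tested in the inhibitor and 9 in the knockdown experiment, and 0 passed. LMNA, the gene of the nuclear lamins A and C, averaged 175 FPKM in WT and 192 in K56A, against 198 in EV, with a log2 fold change of -0.18 ± 0.04 in WT against EV (limma adjusted p = 0.0941). VIM, the gene of the mesenchymal filament protein vimentin, stood at 6.46 FPKM on average in EPZ and 4.57 in DMSO (limma adjusted p = 0.756). Of 16 epithelial transcription factors, 13 were tested in the inhibitor and 10 in the knockdown experiment, and 0 passed. ELF3, an epithelial ETS factor, averaged 47.5 FPKM in EPZ and 57.1 in DMSO, and KLF5, a Krüppel-like factor of intestinal crypts, 58.5 in EPZ and 71.1 in DMSO, with limma adjusted p = 0.756 for each. In that comparison 2 of the 13 factors lay above DMSO without overlap and 5 below, against 37.4% of all genes in either direction.

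Across the 6 knockdown libraries, the log2 level of KRT18 had a Pearson r of 0.882 with KRT19, 0.780 with KRT80 and 0.170 with KRT8, and KRT23 had -0.285 to 0.101 with the other 4. The genes most like KRT8 were TUBB4B (0.992), CDC42EP2 (0.990) and ATPAF2 (0.989). Those most like KRT18 were CCDC88B (0.994), UBAC1 (0.992) and ZFYVE19 (0.990), and those most like KRT19 were NUBP2 (0.994), the desmosomal plakophilin PKP3 (0.988) and NDUFS8 (0.986). KRT23 was most like MYL6 (0.973) and KRT80 most like TCF19 (0.991). These values describe the best of 8799 genes over 6 libraries from 3 groups that share a normalization, and carry no test.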

How the data were processed

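Per the labels' protocols, each library took 150 ng of TRIzol RNA through a TruSeq mRNA kit. The authors deposited 3 tables of 4 libraries each with FPKM per transcript, and the EV libraries stand in both knockdown tables. The submitters' processing notes name Trim Galore 0.6.6, STAR 2.7.1a, RSEM 1.3.3, DESeq2 1.32.0 and the build GRCh38, with no roles. No counting interval can be stated, as depth, like annotation release and strand setting, is not given in the sources used here. Per the file headers, edgeR (inhibitor) and DESeq2 (knockdown) gave the authors' log2 fold changes with their p-values, which appear only where the authors' deposited table is named. Another 4 columns of values per group were not used.

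FPKM was summed per gene ID (17972 of 18034 matched the name table). Knockdown sums used the 69086 transcripts in both tables, K56A values were multiplied by 1.00066, the mean EV ratio of the tables, and genes with more than 5% of FPKM in transcripts of 1 table were left out. A gene entered the test when 2 or more libraries reached an FPKM of 1. The test was limma 3.58.1 under R 4.3.3 on log2(FPKM + 0.5), with an intensity trend, two-sided, adjusted by Benjamini-Hochberg over all genes at 0.05. EPZ versus DMSO used 4 libraries and the knockdown contrasts 1 fit of 6. That scale understates fold changes of low genes. The procedure was tested on simulated data. Transcript classes were fitted the same way over every gene and class. Plots and tables came from matplotlib 3.10.9, numpy 2.4.6, pandas 2.3.3 and Python 3.11.15. Sequences came from GENCODE 29 and RefSeq.

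Members and lists were chosen with earlier results of these data known. The text names all 6 genes, CDK9 and DOT1L, up to 4 list members with the highest level, for each tested keratin the genes most like it, and transcripts with at least 5% of a gene. PERP, VIM, CDX2 and transcripts below that share were named after their values were seen. Alternatives changed pseudocount, filter, scaling, trend, replicate block, transcripts summed and libraries.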

Additional observations from a re-analysis of the deposited data

How the results depend on the processing

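No keratin gene sum (19 results over the 4 comparisons) and no class sum of KRT8, KRT18 or KRT19 (24 results) passed at an adjusted p of 0.05 in any alternative. KRT80 in EPZ versus DMSO kept its sign but ranged from -1.07 to -0.09. The signs of 14 of the 19 gene results held throughout, and the other 5, all of them near 0 (KRT8, KRT18 and KRT19 in EPZ versus DMSO, and KRT18 and KRT23 in WT versus EV), turned only when a library was left out. The lowest adjusted p of a class sum was 0.0718, for retained-intron KRT19 in K56A versus EV. Among the class sums of retained introns, KRT19 in EPZ versus DMSO and KRT8 in K56A versus WT changed sign when a library was left out. The coding sum of KRT19, near 0 in EPZ versus DMSO and in K56A versus EV, also changed sign with median ratio scaling.

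The counts over all genes moved more, and the cause was not tested. The 1 gene of EPZ versus DMSO became 0 with a pseudocount of 0.1, without a filter, with FPKM of at least 5, without the trend and with transcripts above 0 in every library. The 62 of WT versus EV became 40, 149, 1 and 38 without a filter, with FPKM of at least 5, without the trend and with transcripts above 0 in every library, and 10 from one deposited table alone. The 88 of K56A versus EV became 53, 176 and 4 without a filter, with FPKM of at least 5 and without the trend, and 22 from one deposited table alone. The 7 of K56A versus WT became 1, 23 and 0 in the same 3 settings. Leaving out a library gave 34 to 1560 genes in EPZ versus DMSO (1560 without DMSO replicate 2), 2 to 7 in WT versus EV, 6 to 38 in K56A versus EV and 1 to 2 in K56A versus WT, where the group's remaining library was given the spread found within the other groups of its fit. With median ratio scaling, K56A versus EV had 15 higher and 94 lower calls, against 21 and 67.

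With the replicate number as a block, 2, 26, 50 and 3 genes passed in the 4 comparisons in that order. Same-numbered libraries had deviations with correlations of 0.245 in the inhibitor experiment and -0.0324 to 0.0347 in the knockdown experiment, and no label ties the numbers to a shared culture or day. The value in the inhibitor experiment rests on 2 numbers, too few to tell whether they pair the libraries. Depth is unknown, which limits KRT20 in all libraries and KRT23 in the inhibitor libraries.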
